A study of Solenopsis invicta with 32 samples.

Results

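The brains and the ovaries of spring-reared gynes of the fire ant Solenopsis invicta were compared, as 16 of the 32 libraries of a study of gynes that had overwintered or been reared in spring. The 16 libraries came from 8 gynes, each giving 1 brain and 1 ovary library, and the organs of a gyne were matched by the colony code in the labels, so that every comparison below is brain minus ovary within the same animal. Every gyne was SB/SB, meaning that it had 2 copies of the SB form of the species' social supergene, and came from a monogyne colony. This also held for the overwintered gynes, which appear only where the same contrast is set beside the spring-reared one. The labels give 1 gyne per colony, so the 8 pairs are separate animals and separate colonies; they state no age. The wider question of the study was how queen weight is regulated.

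Gynes are the young reproductive females of an ant colony, and monogyne colonies hold a single egg-laying queen. The insect brain is built of neurons and glia, with neurosecretory cells that send hormones to the rest of the body, whereas the insect ovary holds the germ line, its nurse cells and the somatic follicle cells that surround each oocyte and lay down the eggshell. Genes of synaptic signalling are known to be active in the first organ, and genes of meiosis, egg provisioning and eggshell formation in the second. The identifiers in the files are not paired with gene names, and 0 of the 16314 gene models matched the reference gene table. Marker genes of neurons, glia, germ line or follicle cells could therefore not be read, the gene lists fixed by symbol could not be used, and genes are described below by organ, level and size of difference, with 4 of them identified by the files' own identifiers.

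Gene counts ranged from 12409245 to 19290194 in spring-reared brains and from 11797043 to 16005289 in spring-reared ovaries. The libraries were made by Smart-seq2, a low-input method that amplifies polyadenylated RNA, with an RNA input of 1.6 ng for brains and 8.0 ng for ovaries, extracted with the RNeasy micro kit and mini kit. Organ cannot be told apart from RNA input and kit in any comparison below, and in bulk tissue fewer cells of a type and less RNA per cell cannot be told apart either. Organ separated the 16 libraries along the first principal component of log2 CPM (CPM, counts scaled to a common library size), which held 83.0% of the variance, with brains between 86.84 and 95.04 and ovaries between -94.78 and -83.19. The second component held 2.697% and spread mainly the brains, with brain 6 at -37.9 and brains 4 and 7 at 33.6 and 25.4. Results are therefore also given without gynes 4, 6 and 7 where that changed them.

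The organ labels were checked against genes chosen in other animals. In overwintered gynes, 1709 genes were called at least 4-fold higher in brain and 1123 at least 4-fold higher in ovary. The overwintered brain genes took 27.3% ± 1.81 of the counts in spring-reared brains (SD, n = 8), from 25.1% to 30.4%, and 2.33% ± 0.309 in spring-reared ovaries (SD, n = 8), from 2.02% to 2.84%. The overwintered ovary genes took 1.74% ± 0.601 in spring-reared brains, with a median of 1.54% and a range of 1.30% to 3.09%, and 13.9% ± 1.14 in spring-reared ovaries, from 12.6% to 15.8% (SD, n = 8 each). The organs did not overlap on either measure, so every library sided with its label. Brain 6 stood at 3.09% on the ovary genes, followed by brain 3 at 2.14%, while the other 6 brains held at most 1.56%. In brain 6, 36 of 1051 ovary genes held at least 10 CPM and at least 4 times the median of the other brains, against 26 in brain 3 and 0 to 14 in the rest. By another measure brain 1 came first: the median level of the 1051 genes was 2.27 CPM there, against 1.24 to 2.02 CPM in the other brains. Without gyne 6, brains were higher than ovaries for 3338 genes and lower for 3634, against 3437 and 3738 with all gynes.

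Spring-reared brains expressed fewer genes than the ovaries of the same gynes. Brains held at least 1 count for 9854 to 10569 genes, with a mean of 10215 ± 240 (SD, n = 8), and ovaries for 10558 to 11212 genes, with a mean of 10963 ± 224 (SD, n = 8). The number was lower in brain in 8 of 8 gynes (exact two-sided paired permutation p = 0.0078, the smallest that 8 pairs allow, adjusted p = 0.01004 over 9 library measures). With counts thinned to 11797043 per library, the depth of the smallest, the difference was -739.1 genes and likewise negative in 8 of 8 gynes (exact paired permutation adjusted p = 0.01004). At that depth 8645 genes had a count in all 8 brains, against 9581 in all 8 ovaries, and 3255 genes had a count in 1 to 7 brains, against 2874 in 1 to 7 ovaries. Detection was thus patchier in brain as well as narrower.

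Counts were also concentrated in fewer genes in brain. In spring-reared brains, 495 ± 40.7 genes held 50% of the counts, from 426 to 555, whereas in ovaries 769.4 ± 37.1 genes did, from 721 to 835 (SD, n = 8 each; exact paired permutation p = 0.0078, adjusted p = 0.01004). The ranges did not overlap. The 10 most abundant genes took 9.12% ± 1.74 of counts in brains and 7.13% ± 0.941 in ovaries (SD, n = 8 each), a difference in the same direction in 7 of 8 gynes (exact paired permutation adjusted p = 0.0352). That call was lost without any 1 of gynes 1, 2, 3, 4, 5, 7 and 8, with adjusted p up to 0.0703.

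Reads that could not be assigned to a gene were more frequent in brain. Unmapped reads made up 17.2% ± 3.37 of brain and 3.55% ± 0.900 of ovary reads, multimapping reads 9.49% ± 0.947 and 5.71% ± 0.175, and reads outside annotated genes 10.8% ± 0.541 and 7.12% ± 0.261 (SD, n = 8 each). Each was higher in brain in 8 of 8 gynes (exact paired permutation adjusted p = 0.01004 each). Reads that fell on overlapping genes made up 1.10% ± 0.0648 in brains and 1.42% ± 0.0247 in ovaries, and were lower in brain in 8 of 8. The part of these shares in the gene results was not tested.

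**Figure D1:**
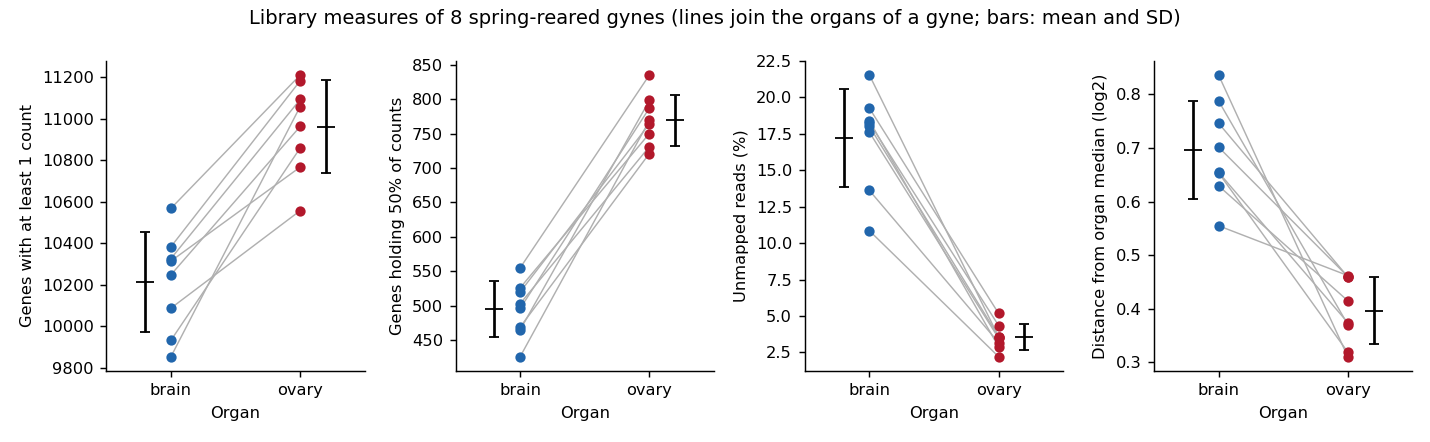
Genes with a count, genes holding 50% of counts, unmapped reads (%) and distance from the median profile of the organ (log2 units) in each library, brain left and ovary right, with lines joining the organs of a gyne and bars for the mean and SD of 8. All 8 lines slope the same way in each panel, with mean differences (brain minus ovary) of -747.6 genes, -274.4 genes, 13.6 percentage points and 0.299 log2 units.

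Most expressed genes differed between the organs. Of 9624 genes that passed the filter on low counts, 7175 (74.6%) had an adjusted p under 0.05 (edgeR quasi-likelihood test, gyne as a block, Benjamini-Hochberg adjustment). Spring-reared brains were higher for 3437 genes (35.7%) and lower for 3738 (38.8%). The remaining 6690 gene models were not tested, 3218 of them because no library of the 16 held a count. A median log2 fold change of -0.09 over all genes tested left the contrast close to centred. Called genes had a median log2 fold change of 1.70 when higher in brain and -1.35 when lower in brain. Without scaling factors for composition, all log2 fold changes shifted by -0.28 at the median and the calls became 2858 higher and 4451 lower, so the near balance of directions depends on the scaling while no called gene reversed.

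Larger differences were found in both directions. At least a 2-fold difference was found for 2442 genes in each direction, and at least a 4-fold difference for 1500 genes higher in brain (15.6%) and 1221 lower in brain (12.7%). The 4-fold genes numbered 1533 higher and 1028 lower without the gyne as a block, but 1307 higher and 1486 lower with library size as the only scaling, so which side holds more of them depends on the scaling. A test against a 2-fold difference itself passed 3864 genes (edgeR glmTreat, adjusted p under 0.05). At 32-fold the numbers were 480 higher and 421 lower, and the organs differed in how the low side looked. Of the 480 genes at least 32-fold higher in brain, 23 had no count in any ovary, whereas of the 421 at least 32-fold lower in brain, 126 had no count in any brain. Setting such genes at a floor of 3 counts over the 8 libraries of the organ, 69 genes were at least 1024-fold higher and 55 at least 1024-fold lower in brain.

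**Figure D2:**
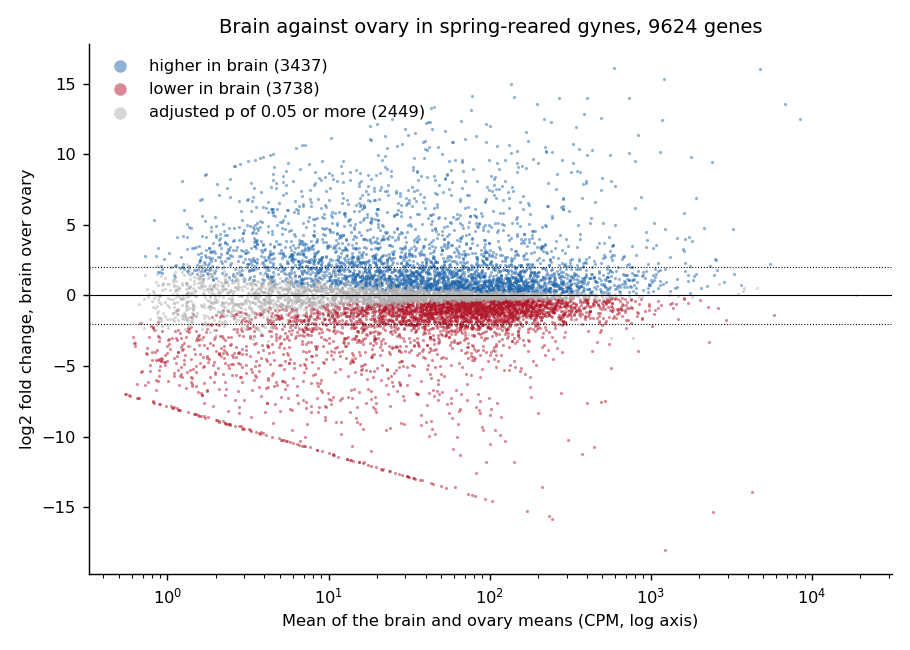
The log2 fold change of brain over ovary (vertical axis) against the mean of the organ means in CPM (horizontal log axis) for the 9624 genes tested, with 3437 called higher and 3738 called lower in brain. Dotted lines mark 4-fold. The points on a sloping line at the lower edge are genes with no count in any brain, whose fitted fold follows from the prior count and is no measurement of size.

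The 4-fold genes took a larger share of counts in their own organ, more so in brain than in ovary. The 1500 genes at least 4-fold higher in brain took 29.7% ± 1.59 of counts in brains and 2.89% ± 0.411 in ovaries (SD, n = 8 each). The 1221 at least 4-fold lower took 1.11% ± 0.0917 in brains and 12.9% ± 1.12 in ovaries. These shares describe the lists and were not tested, since the lists were drawn from the same libraries. The median gene of the first list averaged 41.4 CPM in brains and 2.06 CPM in ovaries, and that of the second 1.92 CPM in brains and 28.3 CPM in ovaries. The 20 most abundant genes of the first list had means of 2751 to 16781 CPM in brains, and 12 of them still exceeded 100 CPM in ovaries. Those of the second list reached 684.1 to 8524 CPM in ovaries, and 8 of the 20 exceeded 100 CPM in brains.

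SINVBB1_04755 had the highest mean in brain among the genes at least 4-fold higher there. It held 13109, 18803, 16175, 13825, 24758, 3378, 24273 and 19927 CPM in brains 1 to 8, against 2.94, 2.48, 1.45, 2.30, 4.92, 1.23, 2.90 and 4.19 CPM in ovaries 1 to 8. No brain came near any ovary, with brain 6 the lowest of the brains and ovary 6 the lowest of the ovaries. The gene averaged 16781 ± 6928 CPM in brains and 2.80 ± 1.26 CPM in ovaries (SD, n = 8 each), with a log2 fold change of 12.50 (SE 0.26, edgeR adjusted p = 1.18e-10).

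SINVBB1_11154 had the largest log2 fold change of the genes averaging at least 50 CPM in brain, 16.10 (edgeR adjusted p = 1.52e-11). In brains 1 to 8 it held 981.9, 1240, 880.6, 1581, 1543, 897.8, 1044 and 1228 CPM. In ovaries it had a single count, in ovary 5 (0.0656 CPM), and 0 in the other 7. Brains were thus all high, and ovaries were at the limit of detection. The ratio of the summed levels was 144123, with a 95% counting interval of 25867 to 5692570. Without gyne 5 there was no ovary count, and the gene was at least 40303-fold higher in brain.

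SINVBB1_07507 had the highest mean in ovary among the genes at least 4-fold lower in brain. It had no count in brains 1, 2, 3, 5, 6 and 8, and 9.03 and 2.44 CPM in brains 4 and 7. In ovaries 1 to 8 it held 5690, 11752, 9862, 10796, 8824, 5516, 8007 and 7746 CPM. The 176 brain counts thus came from the libraries of 2 gynes, whose own ovaries stood at 10796 and 8007 CPM. The gene averaged 1.43 ± 3.19 CPM in brains and 8524 ± 2249 CPM in ovaries (SD, n = 8 each; log2 fold change -13.90, SE 1.08, edgeR adjusted p = 1.12e-06). Without gyne 4 the log2 fold change was -15.16, and without gyne 7 it was -14.76. Without gynes 4, 6 and 7 no brain count was left, and the gene was at least 202488-fold lower in brain, against a floor of 3 counts over the 5 brains. The fitted value thus rests on the brains of gynes 4 and 7, and DESeq2 gave -17.50 with all gynes.

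SINVBB1_05618 was the ovary gene of at least 50 CPM with the largest fitted difference. It was listed with 0 counts in all 8 brains. In ovaries 1 to 8 it held 801.8, 1667, 1007, 1184, 832.6, 12141, 1111 and 745.9 CPM. Ovary 6 stood far above the next highest ovary, at 1667 CPM, so the mean of 2436 ± 3932 CPM (SD, n = 8) rests on it, and the other 7 ovaries averaged 1050 ± 318 CPM (SD, n = 7). Against a floor of 3 counts over the 8 brains (0.0270 CPM) the gene was at least 88413-fold lower in brain, and at least 34484-fold lower without gyne 6 (edgeR adjusted p = 2.39e-06 with all gynes).

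**Figure D3:**
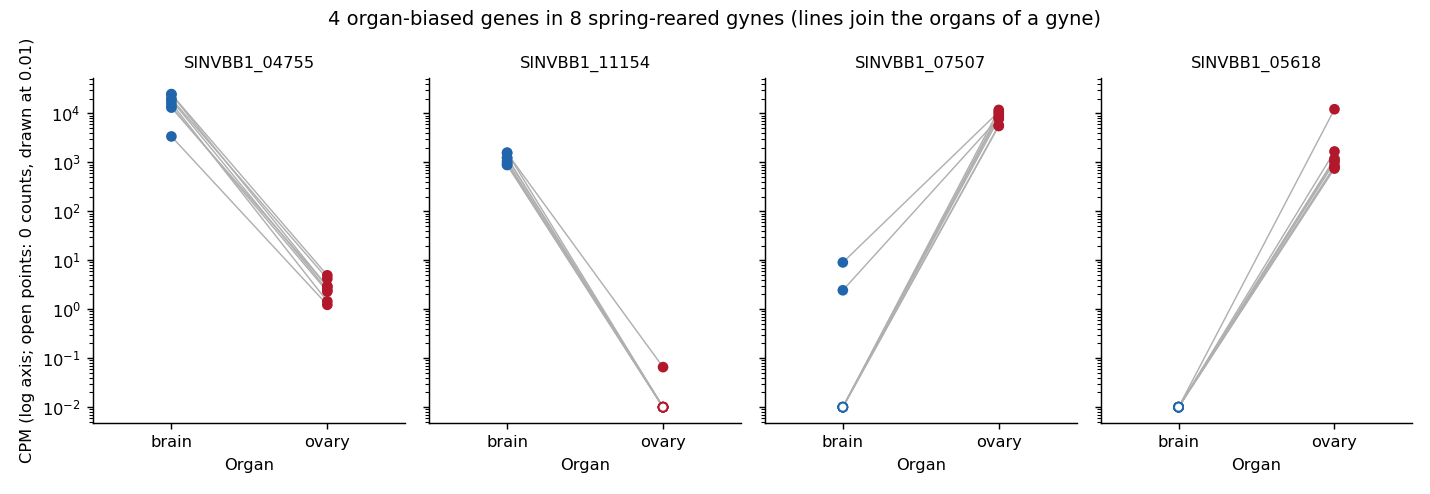
CPM (log axis) of the 4 identified genes in the brain (left) and ovary (right) of each of 8 spring-reared gynes, with lines joining the organs of a gyne and open points, drawn at 0.01, for libraries with 0 counts. No brain overlaps an ovary in any panel; ovary 6 (12141 CPM) stands above the other ovaries in the panel of SINVBB1_05618 and brain 6 (3378 CPM) below the other brains in that of SINVBB1_04755.

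Genes detected throughout one organ and never in the other were mostly ovarian. Of all 16314 gene models, 4350 had no count in any brain and 3787 had none in any ovary. Of the 8707 genes with at least 1 count in all 8 brains, 44 had none in any ovary. Of the 9638 genes with at least 1 count in all 8 ovaries, 224 had none in any brain. At equal depth the numbers were 46 and 222, and with at least 10 counts per library 26 and 126. Without gynes 4, 6 and 7 they were 80 and 290, but under this rule the numbers cannot fall when libraries are left out. The 44 brain genes had a median of 5.13 CPM in brains and 2 of them reached 100 CPM. The 224 ovary genes had a median of 2.38 CPM in ovaries and 11 of them reached 100 CPM. Of these genes, 23 and 126 passed the filter for the test.

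Abundant genes that were nearly silent in the other organ were more often brain genes, when silence was set at a mean under 1 CPM in place of no count. Of 2358 genes averaging at least 100 CPM in brains, 80 (3.39%) averaged under 1 CPM in ovaries. Of 2453 genes averaging at least 100 CPM in ovaries, 39 (1.59%) averaged under 1 CPM in brains. Requiring every library of the other organ to lie under 1 CPM left 53 and 21 genes. The direction of this count was opposite to that for complete absence, in which ovary genes outnumbered brain genes at high levels too, with 2 brain and 11 ovary genes at 100 CPM or more. Which organ had more such genes thus depended on how silence was defined. With library size as the only scaling the numbers were 79 of 2133 and 46 of 2706. The difference between the counts was not tested.

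Among the most abundant genes, more were higher in brain than lower. By mean CPM over the 16 libraries, 63 of the 95 genes of 1000 CPM or more were higher and 23 lower in brain, and 30 were at least 4-fold higher against 5 at least 4-fold lower. From 100 to 1000 CPM, 288 of 2431 genes (11.8%) were at least 4-fold higher and 149 (6.13%) at least 4-fold lower. From 10 to 100 CPM the numbers were 719 and 566 of 4855, and from 1 to 10 CPM they were near even, at 457 and 441 of 2118. Over all genes tested, 15.6% and 12.7% passed these limits. With library size as the only scaling, 24 and 6 of 91 genes of 1000 CPM or more passed, but 226 and 227 from 100 to 1000 CPM, 634 and 716 from 10 to 100 CPM, and 417 and 482 from 1 to 10 CPM, so the excess on the brain side held under both scalings in the top class alone. Fewer than 1 CPM on average was reached by 125 tested genes. At that level a gene can pass the filter through 1 organ alone, so their split of 6 and 60 is not read further.

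Among the top 100 genes of each organ, 40 were shared. Choosing genes by their level in an organ tilts each list towards that organ, so the counts that follow are a description, beside 35.7% higher and 38.8% lower in brain over all genes tested. Of the brain's top 100, 83 were called higher in brain and 42 at least 4-fold, and their median level was 1910 CPM in brain and 627.3 CPM in ovary. Of the ovary's top 100, 64 were called lower in brain and 13 at least 4-fold, with a median of 801.2 CPM in brain and 1165 CPM in ovary. With library size as the only scaling, 79 of the 99 tested genes of the brain's list were higher and 69 of the ovary's 100 lower in brain. The most abundant gene was the same in both organs. It averaged 19315 ± 13364 CPM in brains and 18161 ± 9113 CPM in ovaries (SD, n = 8 each), and its log2 fold change of 0.00 (SE 0.33, edgeR adjusted p = 0.999) did not pass the test, with a wide spread between gynes in both organs.

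**Figure D4:**
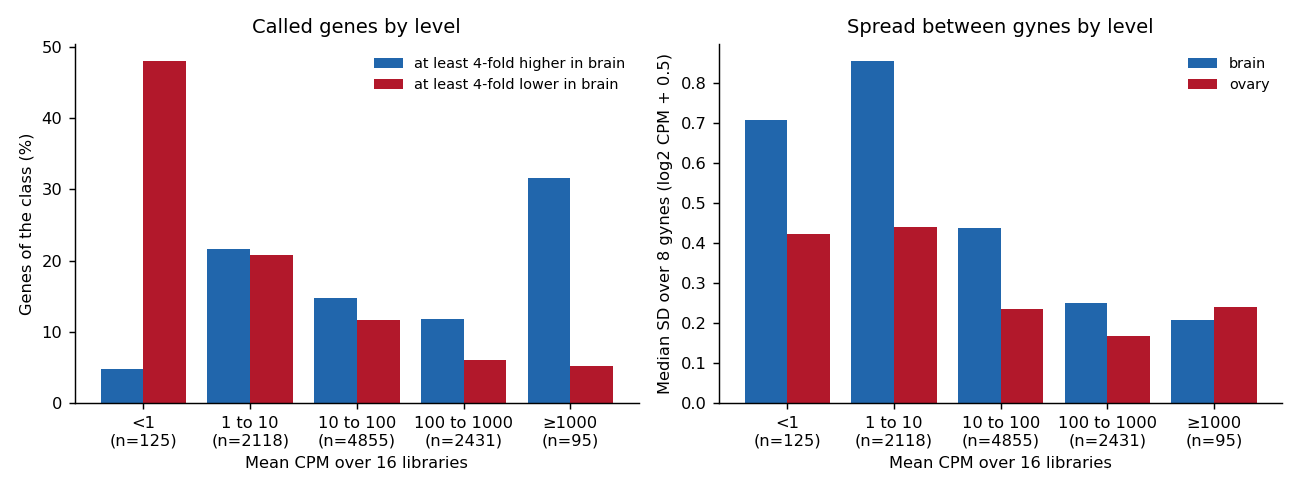
Left, share of genes (%) at least 4-fold higher (blue) or at least 4-fold lower (red) in brain by class of mean CPM over the 16 spring-reared libraries; right, median SD over 8 gynes of log2(CPM + 0.5) in brain (blue) and ovary (red) for the same classes, all with composition-adjusted library sizes. At 1000 CPM or more, 31.6% were at least 4-fold higher and 5.26% at least 4-fold lower in brain, and the SD was larger in brain in every class but that one (0.209 in brain, 0.240 in ovary).

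Low levels of the other organ's genes were found in every library, unevenly. The 421 genes at least 32-fold lower in brain summed to 0.0267% to 0.0505% of the counts of a brain, and 108 to 172 of them had a count there. Brain 1 held the highest sum, and the next highest was 0.0370%, in brain 8. The 480 genes at least 32-fold higher in brain summed to 0.0644% to 0.108% of the counts of an ovary, where 284 to 372 of them had a count. Ovary 5 was the highest ovary most often, for 121 of the 480. That tally also credited the 23 genes with no count in any ovary to an ovary, so the other ovaries are not ranked by it. These sums come from the contrast that chose the genes and are given as a description.

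The direction of each called gene was also counted gyne by gyne. The genes were called from the same 8 gynes, so a high agreement follows in part from the choice and is given as a description. On the scale of log2(CPM + 0.5), 2822 of the 3437 genes called higher in brain (82.1%) were higher in 8 of 8 gynes, and 3094 of the 3738 called lower (82.8%) were lower in 8 of 8. Over all 9624 genes tested, 29.4% were higher in brain in 8 of 8 gynes and 32.4% lower in 8 of 8. A call rested on 5 or fewer gynes in its direction for only 3 and 4 genes. The single gynes each had 96.5% to 98.1% of the brain-higher genes on the brain side and 96.2% to 98.4% of the brain-lower genes on the ovary side. All 8 brains lay above all 8 ovaries for 1319 of the 1500 genes at least 4-fold higher in brain, and below them for 988 of the 1221 at least 4-fold lower. Over all genes tested these patterns held for 23.6% and 25.2%.

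The size of the difference varied moderately between gynes. For the 1500 genes at least 4-fold higher in brain, the median log2 difference was lowest in gyne 1, at 2.97, and highest in gyne 4, at 3.45. For the 1221 at least 4-fold lower it ran from -3.02 in gyne 7 to -2.75 in gyne 1. Gyne 1 thus showed the smallest contrast on both lists. The SD of a gene's difference over the 8 gynes had a median of 0.640 log2 units for the first list and 0.824 for the second.

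Brains varied more between gynes than ovaries did. The root mean squared distance of a library from the median profile of its organ was 0.695 ± 0.0914 log2 units in brains and 0.396 ± 0.0623 in ovaries (SD, n = 8 each), larger in brain in 8 of 8 gynes (exact two-sided paired permutation p = 0.0078, the smallest that 8 pairs allow). Brains 7, 4 and 6 lay farthest out, at 0.836, 0.788 and 0.746. Without those 3 gynes the mean difference was 0.222 in place of 0.299. Within brains, pairwise correlations of log2 profiles ran from 0.909 to 0.951, within ovaries from 0.964 to 0.985, and between the organs from 0.567 to 0.625, as a description across genes. The common biological coefficient of variation was 0.532 in spring-reared brains and 0.279 in spring-reared ovaries. Without gynes 4, 6 and 7 it was 0.474 and 0.278. In overwintered gynes it was 0.370 in brains and 0.307 in ovaries, a smaller gap. RNA input was lower and unmapped reads were more frequent in spring-reared brains than in spring-reared ovaries, and the part of both in the spread was not tested.

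Gene by gene, 7785 of 9624 genes (80.9%) had a larger SD in brain than in ovary, and 68.2% did without gynes 4, 6 and 7. Restricting to the 5937 genes of at least 10 CPM in both organs gave 83.5%, with a median SD of 0.325 log2 units in brain and 0.191 in ovary. For genes at least 4-fold higher in brain the spread was similar in both organs, with medians of 0.451 in brain and 0.439 in ovary, and 56.6% more variable in brain (46.7% without gynes 4, 6 and 7). For genes at least 4-fold lower in brain the medians were 0.745 in brain and 0.286 in ovary. Each list was low in the other organ, with a median of only 2.06 CPM in ovaries for the first and 1.92 CPM in brains for the second. The part of counting noise in the spread of either list was not tested.

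The genes that did not pass the test were not all close to equal. Of 2449 such genes, 1832 had a fitted difference under 1.5-fold. A difference of 4-fold or more that missed the threshold was fitted for 59 genes. Those 59 had standard errors of 0.867 to 2.25 log2 units, with a median of 1.17. Over all 2449 the median was 0.264, against 0.188 for the called genes. A smaller difference than these errors resolve was not detectable here.

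The same contrast in the 8 overwintered gynes, which share no library with the spring-reared ones, gave much the same picture. There, 3809 of 9896 genes were higher in brain (38.5%) and 3801 lower (38.4%). Of the spring-reared calls tested in both, 3095 of 3415 genes higher in brain (90.6%) were also called higher in overwintered gynes, which is 85.4% of the 3623 overwintered calls. Of those lower in brain, 3302 of 3696 (89.3%) were also called lower, or 88.7% of the 3724 overwintered calls. Opposite calls were made for 7 and 2 genes. Among spring-reared genes at least 4-fold higher in brain, 1337 of 1480 (90.3%) were at least 4-fold higher in overwintered gynes too, and among those at least 4-fold lower, 921 of 1181 (78.0%). These were 86.3% of the 1550 and 87.6% of the 1051 overwintered genes of these kinds tested in both. Over all 9896 genes tested in overwintered gynes, 1709 were at least 4-fold higher and 1123 at least 4-fold lower in brain. Across 9531 genes the log2 fold changes of both treatments had Pearson r = 0.964, a description across genes that share length, sequence and annotation.

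The difference between the contrasts was tested directly, with each gyne as a block. Of 10448 genes, 123 (1.18%) had an organ difference that differed between spring-reared and overwintered gynes (edgeR, adjusted p under 0.05), and 1604 had an unadjusted p under 0.05. The brain-minus-ovary difference was more positive in spring-reared gynes for 83 genes, with a median excess of 1.02 log2 units, and more negative for 40, with a median of -1.51. Of the 83, spring-reared brains were higher than their ovaries for 55, lower for 19 and not called or not tested for 9. Called in both treatments with the same sign were 77 genes, of which 46 had the larger difference in spring-reared and 31 in overwintered gynes, and 7 were called with opposite signs. The count was 78 without spring-reared gyne 3, 79 without gyne 7, 67 without gynes 4, 6 and 7, and 285 without the gyne as a block. Of the 4 identified genes, SINVBB1_04755, SINVBB1_11154 and SINVBB1_07507 did not pass this test (edgeR adjusted p of 0.474, 0.431 and 0.968). For SINVBB1_05618, with 0 counts in all brains of both treatments, the difference between the contrasts could not be estimated.

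**Figure D5:**
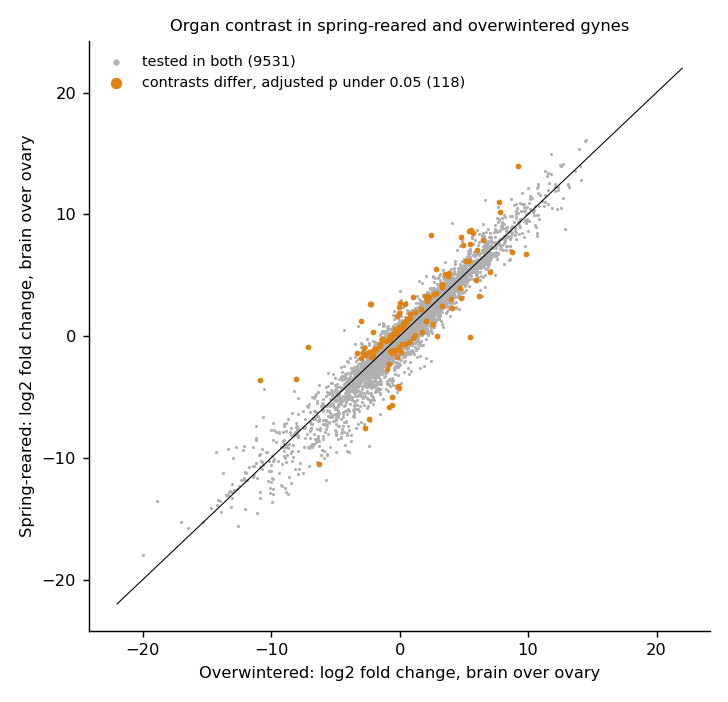
The log2 fold change of brain over ovary in spring-reared gynes (vertical axis) against that in overwintered gynes (horizontal axis) for 9531 genes tested in both, with the line of equality. Orange points are the 118 of these genes whose organ difference itself differed between treatments (adjusted p under 0.05); 77 of them were called in both treatments with the same sign and 7 with opposite signs.

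SINVBB1_04755 had a log2 fold change of 12.50 in spring-reared and 12.10 in overwintered gynes (interaction 0.42, SE 0.27, edgeR adjusted p = 0.474). SINVBB1_11154 had 4 counts over the 8 overwintered ovaries and SINVBB1_07507 had 33 over the 8 overwintered brains. SINVBB1_05618 had no count in any overwintered brain either, and averaged 8103 ± 7178 CPM in overwintered ovaries, without scaling factors (SD, n = 8). In the spring-reared gynes the same 3 genes had 1, 176 and 0 counts in the lower organ, and the difference between treatments in these counts was not tested.

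The authors' deposited tables list 7655 genes for brain and 8031 for ovary over both treatments. Of the 773 genes in the authors' deposited table for brain alone, 699 were at least 4-fold higher and 0 at least 4-fold lower in spring-reared brains. Of the 1149 in the authors' deposited table for ovary alone, 1 was at least 4-fold higher and 699 at least 4-fold lower. A gene's presence in those tables follows its level, so this describes how the lists relate and is no separate evidence.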

How the data were processed

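Per the submitters' processing notes, Trim Galore 0.6.5, STAR 2.7.3a and edgeR were used. Genome build and annotation: not given in the sources used here. Per library, the authors deposited whole-number counts per gene model, in 1 column; the 4 lines that name no gene stayed out of library sizes and tests. Smart-seq2 does not mark strand, so overlapping genes and antisense partners cannot be separated. Near-identical copies cannot be separated either, whether or not strand is marked. The deposited CPM tables equal the authors' counts scaled over the listed genes (relative tolerance 1e-06) and served only as lists of genes.

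Counts of the 16 spring-reared libraries were tested with edgeR 4.0.16 under R 4.3.3 (TMM factors, 0.883 to 0.951 in brains and 1.06 to 1.14 in ovaries; filterByExpr; robust quasi-likelihood F-test; gyne as a block; Benjamini-Hochberg threshold 0.05). Standard errors were derived from each log2 fold change and its F. CPM values use TMM-adjusted library sizes, and scales that need logs add 0.5 CPM (2 for principal components). The interaction fit held all 32 libraries with 1 term per gyne. Library measures were compared by exact paired permutation of signs in numpy 2.4.6. Intervals and floors (3 counts) cover counting error only. Alternatives were limma 3.58.1, DESeq2 1.42.0, other scalings and filters, thinning, and gynes left out. The organ fit was also run on simulated counts in which few genes changed, in both directions. With 74.6% of genes called in the data, that run is no check of the scaling.

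Pairing comes from the colony codes. Deviations of a gyne's organs from their group means correlated at 0.135 on average (0.0586 to 0.267), and 7 of 8 brains correlated best with their own ovary. No libraries of a group agreed within sampling noise (lowest chi-square divided by its degrees of freedom 18.7, 28 pairs per group).

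Named genes were, in each direction, the called gene of at least 4-fold with the highest mean in the higher organ, and the called gene of at least 50 CPM there with the largest log2 fold change. These rules, groups and lists were chosen with earlier results of these data known. The lists fixed by symbol, of cell type markers, could not be used.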

Additional observations from a re-analysis of the deposited data

Results flagged for a closer look

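In 32 sets of 8 spring-reared values, 4 held a library far from the others. The rule used flags about 1 in 20 sets of normally distributed values. That rate does not hold for SINVBB1_11154 and SINVBB1_07507, whose values in the lower organ were mostly 0. The 4 flags are therefore a description and were not compared with chance. Genes at least 4-fold higher in overwintered ovaries took 3.09% of the counts of spring-reared brain 6, against 1.30% to 2.14% in the other 7 brains. SINVBB1_07507 stood at 9.03 CPM in spring-reared brain 4, against 0 to 2.44 CPM in the other brains. SINVBB1_11154 had its only ovary count in ovary 5, at 0.0656 CPM, where the others held 0. SINVBB1_05618 stood at 12141 CPM in spring-reared ovary 6, against 745.9 to 1667 CPM in the other ovaries. The leading gene of the ovary class in brain 6 took 0.435% of its counts. That gene averaged 0.0633% in ovaries, and its organ difference in spring-reared gynes was not called (edgeR adjusted p = 0.160). The leading gene of brains 2, 4 and 7 was called higher in brain (log2 fold change 1.25, edgeR adjusted p = 0.0160). Without its leading gene the class still took 2.65% in brain 6, against 1.25% to 1.90% in the other brains without their own.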

How the results depend on the processing

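Of 338 recomputed values, 307 kept their direction, side of the threshold or size, and 0 changed sign. Counts of genes and the share of calls cannot change sign, and the identified genes were chosen for large differences. The absence of sign changes therefore says little. The counts of genes higher, lower and at least 4-fold higher or lower in brain, and those past a 2-fold test, stayed within 1.5 times of the reported ones under each alternative run. The share of calls that were higher in brain was 47.9%. Its Wilson 95% interval, 46.7% to 49.1%, treats genes as independent draws and measures no spread between gynes. The share was 50.2% without the gyne (replicate block), 39.1% with library size alone and 49.6% with limma voom. It was 46.1% with quantile and 49.4% with cyclic loess normalization, and 46.3% with no low-count filter. The interaction count was 285 without the replicate block, 241 with limma voom, 67 without spring-reared gynes 4, 6 and 7, and 78 to 141 without single spring-reared gynes. Genes in all brains and no ovary numbered 26 with 10 counts as the minimum, and those in all ovaries and no brain 126. Without gynes 4, 6 and 7 the genes in all brains and no ovary numbered 80, a number that cannot fall when libraries are left out. Leaving out single gynes, the brain-minus-ovary difference in gene counts ran from 1211890 to 2069760 (adjusted p 0.0176 to 0.141) and that in the share of the 10 most abundant genes from 1.67 to 2.43 percentage points. Without gynes 4, 6 and 7, 5 pairs cannot reach an exact p below 0.0625, so no call was possible; the differences were -626.6 genes detected, -635.8 at equal depth, 1.93 points for the 10 most abundant genes, -259 genes holding 50% of counts, 13.8 points unmapped, 3.67 multimapping, 3.52 no-feature and -0.347 ambiguous, and 0.222 log2 units of spread. The causes of these changes were not tested. Leaving out gynes in the detection counts, gene SDs and bounds of single genes was chosen after seeing the data. Called genes reversed under quantile (12 genes) and cyclic loess normalization (2 genes). One count was worth under 0.1 CPM in every library, so levels below that are not resolved.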
